A study of Mus musculus with 8 samples.

Results

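The genes described here are 65 mitosis and kinetochore genes among the 16974 genes listed in the expression table of HU210-stimulated N2A cells. They were chosen by symbol, with earlier results of these data known. The symbols cover the Cenp, Anapc, condensin and Smc names and the Bub1, Aurora and Polo kinases. Named genes were added for Cdk1, its cyclins and Cdc25 phosphatases, the Ndc80 complex, the spindle checkpoint, topoisomerase and cytokinesis. The cells are N2A (Neuro 2A), a line grown from a mouse neuroblastoma, and HU210 is a synthetic cannabinoid that activates the cannabinoid 1 receptor (CB1R). Cells were starved for 16 h in medium without serum that contained bovine serum albumin, and then received HU210 at 2 µM or drug-free DMSO for 2 h, 4 h, 6 h or 8 h, so that starvation and the solvent were common to all 8 conditions. Each condition is 1 mRNA library in which 2 to 3 independent experiments were pooled. The effect of HU210 at 1 hour thus rests on 1 pair of libraries, without replicates.

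Cells enter mitosis when Cdk1, bound to cyclin B, is switched on by Cdc25 phosphatases, and Polo and Aurora kinases then act at centrosomes, kinetochores and the midzone. Kinetochores assemble on centromeric chromatin that holds the histone variant Cenpa, and until every kinetochore is attached, the spindle checkpoint keeps Cdc20 from activating the anaphase-promoting complex (APC/C), the ubiquitin ligase that ends mitosis by marking cyclin B and securin for destruction. Many of these genes are transcribed mainly in G2 and M phase, through promoter elements bound by the DREAM, B-Myb and FoxM1 complexes at a cell cycle genes homology region and by NF-Y at CCAAT boxes. In RNA from a whole culture, fewer cells in mitosis and less mRNA per cell cannot be told apart.

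Promoters of the members are shown for these elements. RefSeq promoters (build GRCm38.p6, 250 bases before to 50 bases after the annotated start) were matched for 59 of the 65 members, with 68 promoters in all. The 5 printed below belong to the mitotic kinase Cdk1, its cyclins Ccnb1 and Ccnb2, and the centromere genes Cenpa and Cenpf. These are the members whose own slopes per hour are given further on. Both elements were found together in 22 of the 59 matched members (37.3%), and all 5 printed promoters hold them. Each is given 5′ to 3′ on the strand of its gene, and the capitals mark the homology region (TTTGAA or TTTAAA, on either strand) and CCAAT (or ATTGG, its other strand).
Cdk1: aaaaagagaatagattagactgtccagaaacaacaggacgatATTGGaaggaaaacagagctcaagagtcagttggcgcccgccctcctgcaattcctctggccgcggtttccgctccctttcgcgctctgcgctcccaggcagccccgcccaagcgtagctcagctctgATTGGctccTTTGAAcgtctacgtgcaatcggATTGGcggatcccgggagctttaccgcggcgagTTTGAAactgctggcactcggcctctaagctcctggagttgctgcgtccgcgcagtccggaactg
Ccnb1: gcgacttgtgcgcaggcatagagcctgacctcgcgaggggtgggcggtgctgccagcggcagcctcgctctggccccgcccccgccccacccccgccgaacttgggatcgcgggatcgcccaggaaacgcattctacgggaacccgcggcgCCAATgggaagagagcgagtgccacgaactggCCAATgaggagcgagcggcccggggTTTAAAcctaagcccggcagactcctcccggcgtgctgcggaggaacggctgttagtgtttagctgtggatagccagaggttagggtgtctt
Ccnb2: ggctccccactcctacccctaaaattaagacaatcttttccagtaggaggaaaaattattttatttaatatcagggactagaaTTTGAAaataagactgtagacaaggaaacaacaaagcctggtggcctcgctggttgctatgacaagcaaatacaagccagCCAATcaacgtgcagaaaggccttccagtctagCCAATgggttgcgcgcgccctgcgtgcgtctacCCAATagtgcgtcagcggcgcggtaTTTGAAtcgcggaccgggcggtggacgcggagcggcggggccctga
Cenpa: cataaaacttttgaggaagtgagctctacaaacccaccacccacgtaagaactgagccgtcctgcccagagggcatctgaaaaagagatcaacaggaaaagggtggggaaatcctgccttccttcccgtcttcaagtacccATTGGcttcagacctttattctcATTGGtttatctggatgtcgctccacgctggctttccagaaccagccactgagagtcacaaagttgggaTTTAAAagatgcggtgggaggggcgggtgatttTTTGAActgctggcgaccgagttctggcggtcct
Cenpf: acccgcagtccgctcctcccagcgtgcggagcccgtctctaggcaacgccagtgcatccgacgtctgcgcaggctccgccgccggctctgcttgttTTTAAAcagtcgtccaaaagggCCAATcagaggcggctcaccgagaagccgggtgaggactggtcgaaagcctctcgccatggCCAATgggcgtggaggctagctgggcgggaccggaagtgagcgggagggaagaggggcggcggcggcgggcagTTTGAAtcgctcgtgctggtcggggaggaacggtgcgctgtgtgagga
These windows lie at chr10:69352863-69353162 on the minus strand for Cdk1, chr13:100786437-100786736 on the minus strand for Ccnb1, chr9:70421505-70421804 on the minus strand for Ccnb2, chr5:30666636-30666935 on the plus strand for Cenpa and chr1:189688037-189688336 on the minus strand for Cenpf, all in GRCm38.p6. Counted from 1 at the start and from -1 at the base before it, the first base of the homology region was at -42 in Ccnb1 and that of its CCAAT boxes at -99 and -67. In Cdk1 the homology region was at -71 and -15 and CCAAT at -208, -80 and -48. In Cenpa the homology region was at -17 and 17, on both sides of the start.

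The homology region was found in at least 1 promoter of 30 of the 59 matched members (50.8%), against 22.2% of the 8619 genes tested for expression that had a promoter. CCAAT was found in 35 members (59.3%), against 44.3% of those genes. Both elements were found in 22 members (37.3%), against 11% of those genes. Counted by promoter, the homology region was in 47.1% of the 68 member promoters and 27.6% of all 32851 promoters, and CCAAT in 61.8% and 37.4%. In 1 member promoter, that of Cenpw, the 2 elements shared bases. A match is a run of letters and does not show binding. Aurkb, Ccna2, Cdc25c, Incenp, Smc4 and Spc24 had no entry.

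Levels are given in FPKM (sequenced fragments divided by transcript length and by a library size that was set from the upper quartile), which can be set side by side between genes because they are per length. All 65 members were listed in every library and had a mean of at least 1 FPKM, the limit that left 11311 genes for testing. The mean level ran from 3.15 FPKM for Anapc10 to 307 FPKM for Cdk1, which lay at the 98.3rd percentile of the genes tested. Cdk1 was followed by Top2a with 183 FPKM, Smc1a with 93.1, Anapc11 with 89.8 and Birc5 with 80.4. The ratio of a member's highest to its lowest library had a median of 1.4, the same as over all genes tested. It reached 1.5 in 15 of the 65 members (23.1%), against 35.4% of all genes tested, and reached 2 in Ccna2 and Smc4 only (3.08%, against 8.44%).

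Of the markers of a sympathetic neuroblast line, some were high and others at or near 0. Hand2 lay at 70.5 to 108 FPKM over the 8 libraries, Stmn2 at 129 to 157 and Phox2a at 29.1 to 50.9, while the catecholamine enzymes Th and Dbh were at 1.75 to 2.25 and 0.727 to 1.44 FPKM and Nefl and Nefm were listed at 4 h only, below 0.01 FPKM. Tubb3 was not analysed here. Of the markers of other cell types, Gfap, Mog, Cd68, Cdh5 and Col1a1 stayed below 1 FPKM in every library, Pecam1 lay at 0.929 to 1.28, Dcn at 0.996 to 1.303 and Mbp lay at 3.59 to 5.10. Each library listed 16372 to 16557 genes, of which 11328 to 11444 had at least 1 FPKM.

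The first question was whether CB1R stimulation changed these genes at each hour. A change is the log2 ratio of HU210 to DMSO after 1 was added to each FPKM, and 1.3-fold was the smallest change counted. Most members stayed close to the DMSO library of the same hour, and the shares past 1.3-fold were near or below those over all genes. At 2 h, 0 members were higher and 1 was lower by 1.3-fold, where 1.61% of all listed genes were higher and 3.3% lower (1.49% and 3.91% of genes with a mean of at least 1 FPKM). At 4 h, 4 members were higher (6.15%) and 10 lower (15.4%), where 6.61% of all listed genes were higher and 14.5% lower (8.96% and 19.9% of genes with a mean of at least 1 FPKM). With the pair centred on its median ratio, 9 members were higher and 5 lower at 4 h, where 13.4% of genes tested were higher and 14.5% lower. At 6 h, 2 members were higher and 0 lower, where the shares of all listed genes were 5.14% and 1.81% (6.38% and 1.72% with a mean of at least 1 FPKM). At 8 h, 0 members were higher and 1 was lower, where the shares were 3.72% and 1.48% (4.38% and 1.44% with a mean of at least 1 FPKM). The median change of the members was -0.043, -0.19, 0.078 and 0.018 at 2, 4, 6 and 8 h, beside -0.051, -0.081, 0.062 and 0.044 over all genes tested. A change under 1.1-fold was seen in 43, 12, 41 and 46 of the 65 members at these hours, so that the spread was widest at 4 h. It was widest at 4 h over all genes tested as well, with quartiles of -0.316 and 0.156. At 2, 6 and 8 h those quartiles were -0.149 and 0.044, -0.044 and 0.186, and -0.048 and 0.148.

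**Figure D1:**
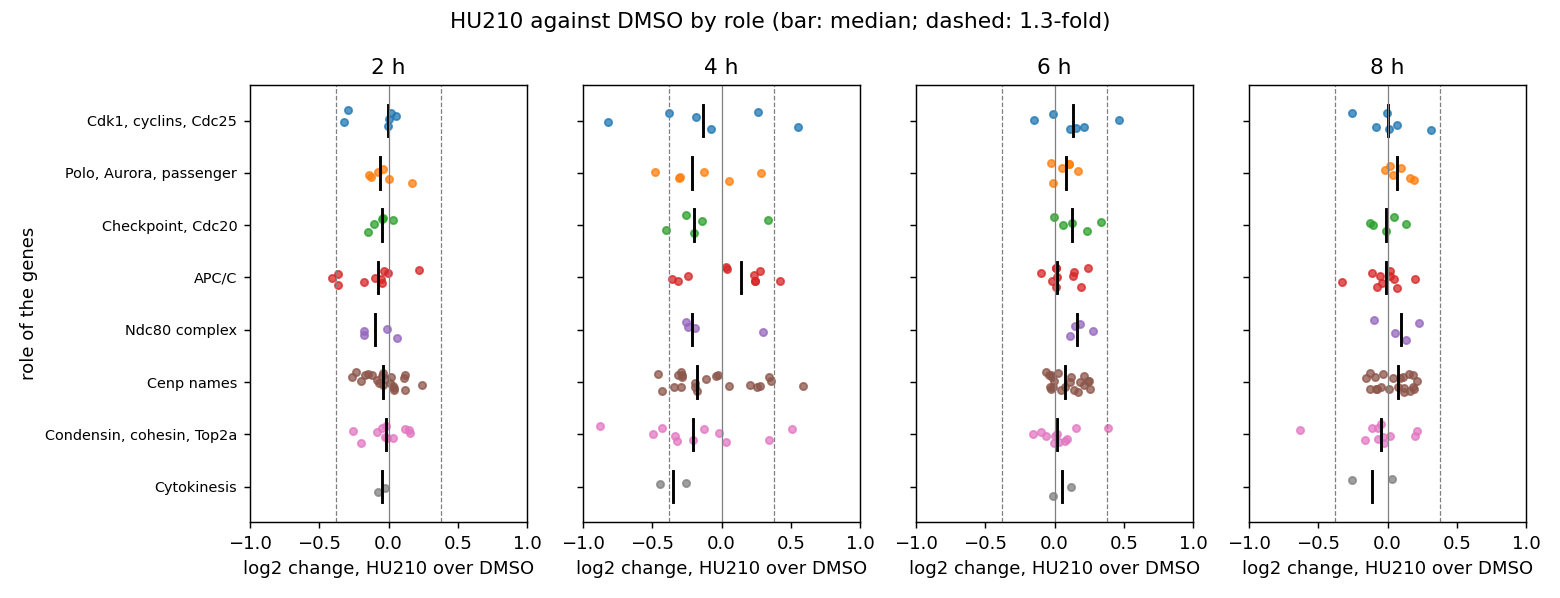
Change of the 65 genes at 2, 4, 6 and 8 h, as the log2 ratio of HU210 to DMSO (x axis), by the role of the genes (y axis), with 1 point per gene, a bar at the median of each role and dashed lines at 1.3-fold. The points spread most at 4 h, where the medians of all roles except the APC/C (0.14) lie below 0. The APC/C role holds only the subunits with an Anapc name.

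Over the 4 time points together, limma with time as a block called 0 of 65 members for HU210 at an adjusted p of at most 0.05, as it called 0% of all 11311 genes, and 0 members had an unadjusted p under 0.05, where 0.619% of all genes were higher and 0.69% lower. This was the only comparison of the treatments with a spread between libraries, and that spread also holds any change of the effect with time. The coefficients ran from -0.25 for Smc4 to 0.15 for Plk4 on the log2 scale. The 95% interval held 0 in all 65 members. It lay within 1.3-fold either way in 55 members, within 1.5-fold in 63 and within 2-fold in all 65, and it was widest for Smc4, from -0.79 to 0.30. Without both 4 h libraries, 2 members were higher and 1 lower at an unadjusted p under 0.05, where 2.09% of all genes were higher and 1.41% lower, and limma still called 0.

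In the values that follow, libraries are in the order 2, 4, 6 and 8 h. In mm9, Cdk1 lies on chromosome 10 at 68799383 to 68815686, Ccnb1 on chromosome 13 at 101548605 to 101556525, Cenpa on chromosome 5 at 30969150 to 30977200, Cenpf on chromosome 1 at 191464478 to 191511965 and Smc4 on chromosome 3 at 68808660 to 68838545. Among the entry kinase and its regulators, Cdk1 was at 375, 234, 320.2 and 248 FPKM with DMSO and 389, 344, 288 and 261 FPKM with HU210. The 2 h libraries were the highest in both treatments. At 4 h the HU210 library was above the DMSO library by 0.55 on the log2 scale, and that DMSO library was the lowest of the 8. Ccnb1, the B-type cyclin that carries Cdk1 into mitosis, was at 60.0, 51.2, 39.0 and 30.7 FPKM with DMSO and 60.7, 39.1, 45.4 and 38.4 FPKM with HU210. Both 2 h libraries lay above the other 6, and the sign of the difference between treatments changed from 4 h (-0.38) to 6 h (0.21) and 8 h (0.31). Ccnb2, the second B-type cyclin, was at 22.5, 22.7, 17.7 and 17.6 FPKM with DMSO and 22.5, 19.9, 19.7 and 17.6 FPKM with HU210, with no difference past 0.19 at any hour.

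Ccna2, the cyclin of S phase and early mitosis, was at 59.0, 81.8, 34.5 and 51.9 FPKM with DMSO and 47.0, 45.9, 47.9 and 52.4 FPKM with HU210. The HU210 libraries stayed within a narrow band while the DMSO library of 4 h was the highest of the 8 and that of 6 h the lowest, so that the change was -0.82 at 4 h and 0.46 at 6 h. With all 4 DMSO libraries averaged as the reference, the Ccna2 log2 change at 6 h was -0.18. Ccna2 lies on chromosome 3 at 36463788 to 36471072 in mm9, and 14.6% of its exonic bases are shared with Exosc9 on the opposite strand. The study's materials name a stranded library kit, but whether reads were counted by strand is not given in the sources used here. If they were not, reads of the 2 genes cannot be told apart in these bases. Cdc25b, a phosphatase that activates Cdk1, was at 27.8, 23.1, 24.2 and 25.4 FPKM with DMSO and 22.5, 27.8, 23.9 and 23.9 FPKM with HU210. Cdc25c, of the same family, was at 8.52, 8.27, 6.09 and 7.26 FPKM with DMSO and 8.47, 7.80, 6.65 and 5.93 FPKM with HU210, and all 4 libraries of 2 h and 4 h lay above all 4 of 6 h and 8 h.

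Of the Polo and Aurora kinases, Plk1, which acts in centrosome maturation, kinetochores and cytokinesis, was at 27.6, 29.2, 22.0 and 22.3 FPKM with DMSO and 26.1, 23.3, 24.9 and 22.6 FPKM with HU210. Aurka, the spindle pole kinase, was at 31.6, 30.9, 25.8 and 26.4 FPKM with DMSO and 28.8, 28.2, 26.9 and 26.1 FPKM with HU210. In Aurka the 2 h and 4 h libraries of both treatments lay above those of 6 h and 8 h. Aurkb, the kinase of the chromosomal passenger complex, was at 32.9, 27.6, 25.9 and 26.0 FPKM with DMSO and 31.9, 28.8, 25.5 and 27.8 FPKM with HU210, with both 2 h libraries above the other 6. Birc5 (survivin), a subunit of that complex, was at 89.8, 98.1, 71.4 and 76.8 FPKM with DMSO and 81.2, 70.0, 76.8 and 79.1 FPKM with HU210. In Birc5 the DMSO libraries of 2 h and 4 h were the highest of the 8, and the change at 4 h was -0.48. Plk4, the kinase of centriole duplication, was at 22.9, 18.9, 23.6 and 17.4 FPKM with DMSO and 25.9, 23.2, 23.4 and 19.6 FPKM with HU210, and HU210 was above DMSO by 0.17 at 2 h, 0.29 at 4 h and 0.16 at 8 h and level with it at 6 h (-0.01).

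Of the spindle checkpoint genes, Bub1 was at 23.3, 22.5, 18.4 and 22.2 FPKM with DMSO and 22.4, 18.7, 23.4 and 22.0 FPKM with HU210. Its change was 0.34 at 6 h, the third-largest among the members at that hour and below 1.3-fold. Bub1b (BubR1), an inhibitor of the APC/C with Mad2, was at 35.6, 38.0, 28.1 and 33.7 FPKM with DMSO and 36.3, 33.0, 29.4 and 31.3 FPKM with HU210. Ttk (Mps1), the kinase that starts checkpoint signalling, was at 9.30, 10.6, 7.94 and 8.29 FPKM with DMSO and 8.57, 7.79, 8.76 and 9.17 FPKM with HU210, with its highest library in DMSO at 4 h. Mad2l1, which encodes Mad2, was at 63.5, 62.0, 46.4 and 51.1 FPKM with DMSO and 57.2, 56.2, 54.7 and 52.7 FPKM with HU210. Cdc20, the APC/C activator that the checkpoint holds back, was at 30.9, 26.9, 25.2 and 26.4 FPKM with DMSO and 30.1, 34.2, 25.1 and 24.1 FPKM with HU210. Both Mad2l1 and Cdc20 had all libraries of 2 h and 4 h above all of 6 h and 8 h.

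The 10 APC/C subunits with an Anapc name differed from each other in both level and direction. Anapc11, the RING subunit that binds the E2 enzyme, was at 84.7, 89.3, 69.7 and 119 FPKM with DMSO and 63.7, 120.3, 77.1 and 94.5 FPKM with HU210. The change was -0.40 at 2 h, 0.43 at 4 h and -0.33 at 8 h. Anapc4, a scaffold subunit, was at 63.5, 66.3, 51.8 and 68.2 FPKM with DMSO and 49.0, 68.3, 52.5 and 71.4 FPKM with HU210, and Anapc13, a small stabilizing subunit, at 64.0, 76.2, 59.3 and 72.5 FPKM with DMSO and 49.5, 59.3, 67.9 and 69.8 FPKM with HU210. At 2 h these 3 subunits had the lowest changes of all members (-0.37 for Anapc4 and -0.36 for Anapc13), and 9 of the 10 subunits were lower with HU210, as were 64.0% of all genes tested. At 4 h, 7 of the 10 were higher, where 40.9% of all genes were. The APC/C subunits without an Anapc name, on the list of other mitotic genes, were lower at 4 h. Their changes were -0.40 for Cdc16, -0.17 for Cdc23, -0.28 for Cdc26 and -0.77 for Cdc27. Anapc1, a large scaffold subunit, was at 18.1, 23.3, 18.4 and 24.4 FPKM with DMSO and 21.2, 19.6, 22.0 and 22.5 FPKM with HU210. Anapc16 was at 84.8, 70.0, 78.0 and 67.0 FPKM with DMSO and 82.8, 83.0, 72.7 and 69.1 FPKM with HU210. In all, 14 members share exonic bases with another annotated gene. Anapc13 shares 12.6% of its exonic bases with Cep63, Anapc15 41.8% with Tomt, Cenpu 29.6% with Ccdc111 and Cenpo 19% with Adcy3, all on the opposite strand.

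At the kinetochore, Ndc80, the microtubule-binding subunit of the complex that carries its name, was at 16.8, 15.7, 13.1 and 12.5 FPKM with DMSO and 16.6, 13.1, 14.6 and 13.9 FPKM with HU210. The 2 h libraries were the highest in both treatments. Spc25, which anchors the complex to the inner kinetochore, was at 26.1, 23.2, 19.5 and 16.2 FPKM with DMSO and 22.9, 20.3, 23.8 and 19.2 FPKM with HU210, lowest in DMSO at 8 h. Cenpa, the centromeric histone, was at 55.1, 51.6, 45.0 and 41.9 FPKM with DMSO and 59.5, 50.2, 43.9 and 40.9 FPKM with HU210. Its levels followed the same order of hours in both treatments, and no difference between the treatments was past 0.11 on the log2 scale.

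Cenpf, a large kinetochore and nuclear envelope protein, was at 22.2, 29.1, 25.5 and 29.9 FPKM with DMSO and 18.3, 20.9, 26.4 and 31.6 FPKM with HU210. It was lowest with HU210 at 2 h and highest with HU210 at 8 h. Cenpe, a kinesin motor that aligns chromosomes, was at 8.69, 8.86, 8.49 and 7.95 FPKM with DMSO and 8.75, 6.33, 8.99 and 9.15 FPKM with HU210, with 1 low library, HU210 at 4 h. Cenpv, a Cenp name with a role at the central spindle, was at 52.2, 39.6, 51.6 and 53.8 FPKM with DMSO and 49.3, 60.1, 50.9 and 54.2 FPKM with HU210. In Cenpv 7 of the 8 libraries lay between 49.3 and 60.1 FPKM and the DMSO library of 4 h stood below them. Cenpw, a histone-fold subunit next to Cenpa, was at 29.4, 22.4, 29.4 and 18.9 FPKM with DMSO and 35.0, 26.9, 29.0 and 20.5 FPKM with HU210, and Cenpb, which binds centromeric satellite DNA, at 13.1, 11.4, 12.4 and 10.1 FPKM with DMSO and 14.4, 11.9, 14.5 and 11.8 FPKM with HU210.

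Among the genes of chromosome structure, Smc4, the ATPase core of condensin, varied most. It was at 57.9, 76.3, 38.4 and 89.0 FPKM with DMSO and 64.3, 41.0, 50.3 and 57.0 FPKM with HU210, which spans the DMSO libraries of 6 h and 8 h as its lowest and highest. The change was -0.88 at 4 h, 0.38 at 6 h and -0.63 at 8 h, and with all 4 DMSO libraries averaged as the reference the Smc4 log2 change at 6 h was -0.30. Smc2, the partner of Smc4 in condensin, was at 24.7, 25.1, 22.1 and 20.4 FPKM with DMSO and 27.7, 19.9, 24.7 and 23.8 FPKM with HU210, and its changes of 0.16, -0.32, 0.15 and 0.21 stayed under 1.3-fold. Top2a, the topoisomerase that separates sister DNA, was at 190.4, 223, 162 and 190.1 FPKM with DMSO and 185, 158, 172 and 186 FPKM with HU210, with its highest library in DMSO at 4 h and its lowest in HU210 at 4 h. Smc1a, a cohesin core subunit, was at 92.7, 80.5, 88.6 and 109.5 FPKM with DMSO and 77.6, 115, 83.0 and 97.5 FPKM with HU210, and its change at 4 h was 0.51. Ncaph2, a subunit of condensin II, was at 78.8, 64.8, 80.7 and 71.4 FPKM with DMSO and 85.8, 82.5, 72.3 and 66.0 FPKM with HU210, and 18.3% of its exonic bases are shared with Sco2 on the opposite strand. Of the 2 cytokinesis genes, Ect2, the exchange factor for RhoA at the midzone, was at 26.1, 34.4, 24.4 and 28.8 FPKM with DMSO and 24.7, 25.1, 24.2 and 23.9 FPKM with HU210, highest in DMSO at 4 h.

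**Figure D2:**
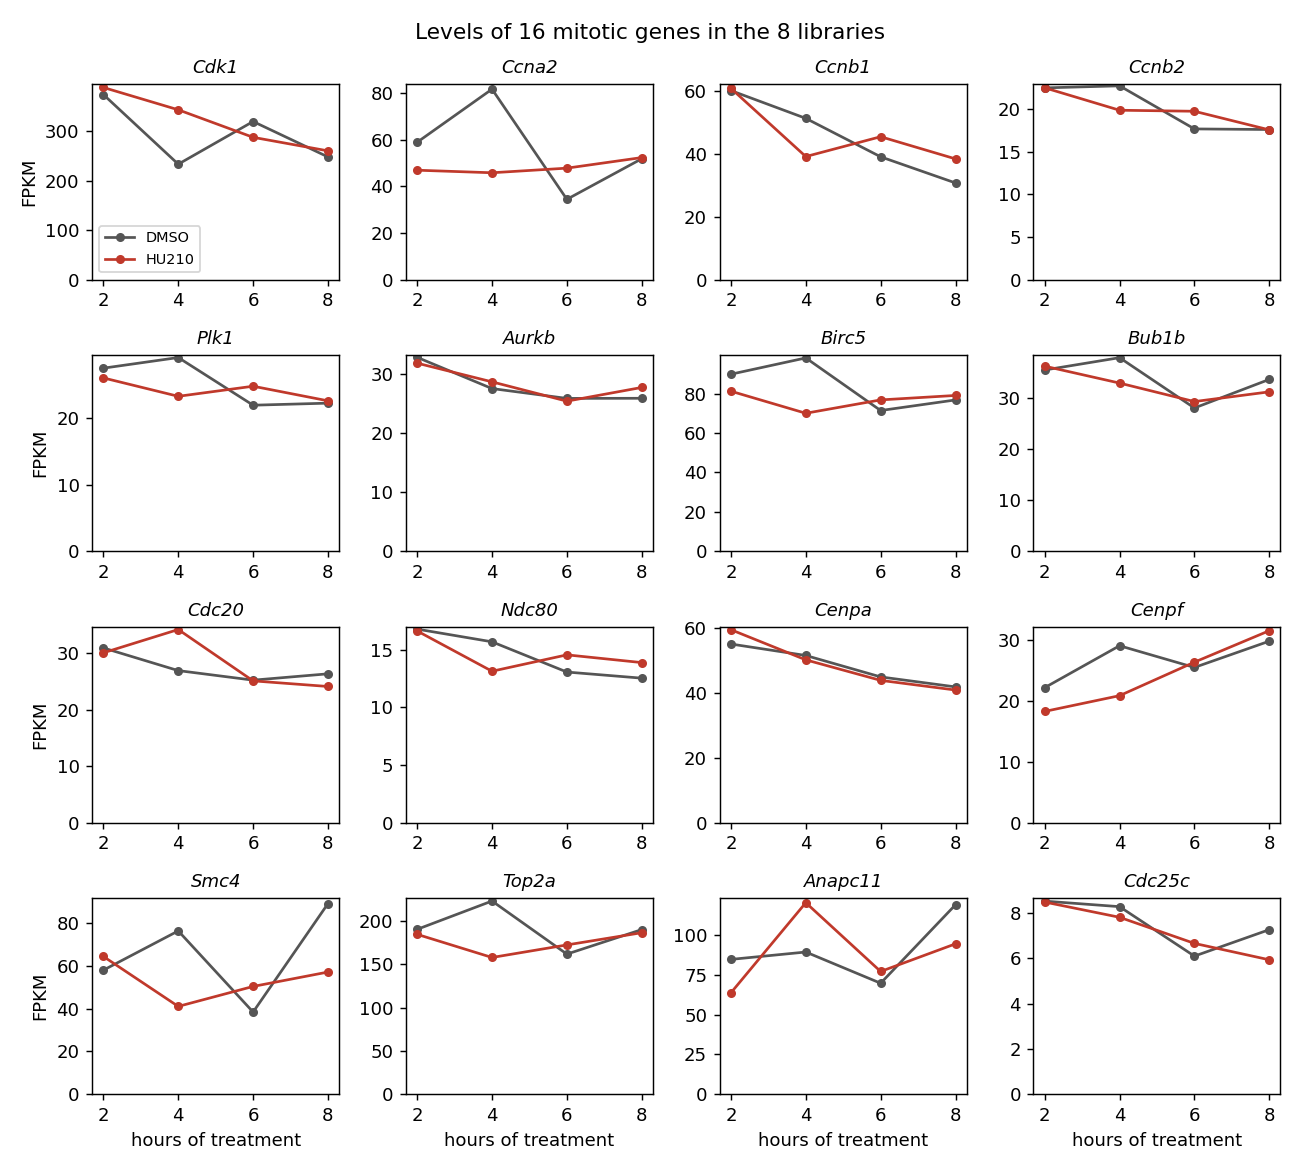
Levels of 16 of the genes in FPKM (y axis, from 0) against hours of treatment (x axis), with 1 point per library, grey for DMSO and red for HU210. Cdk1, Ccnb1 and Cenpa are highest at 2 h in both treatments, and Cenpf is highest at 8 h. The lines for Ccna2 cross between 4 h and 6 h, and those for Smc4 cross between every hour and the next.

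The members past 1.3-fold at 4 h were of different GC content. The 4 higher ones (Cenpv, Cdk1, Smc1a and Anapc11) had a GC content of 46.9% to 61.6% in their longest coding transcript, and the 10 lower ones (Smc4, Ccna2, Top2a, Birc5, Cenpf, Ect2, Cenpe, Ncapg2, Ttk and Ccnb1) had 40.2% to 47.4%. Over all 65 members the median was 46.9%, against 50.5% over the 10590 genes tested with a transcript in the GENCODE vM1 annotation. Across genes, the change at 4 h went with GC content with a Spearman rho of 0.532 over these 10590 genes and 0.43 over the members. At 6 h the rho was -0.298 and -0.205. Genes are not independent replicates, and all points of an hour share the same pair of libraries. The 2 libraries of 4 h lay at opposite ends of this relation, with a rho of -0.479 between GC content and the deviation from the gene mean in DMSO and 0.475 in HU210. The change at 4 h also went with transcript length, with a rho of -0.235 over all these genes and -0.369 over the members. With a fitted trend on GC content and length together taken out, 7 members were higher and 4 lower by 1.3-fold in place of 4 and 10. The shares of genes tested were then 8.03% and 9.95%. The part of GC content or of length alone was not tested.

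**Figure D3:**
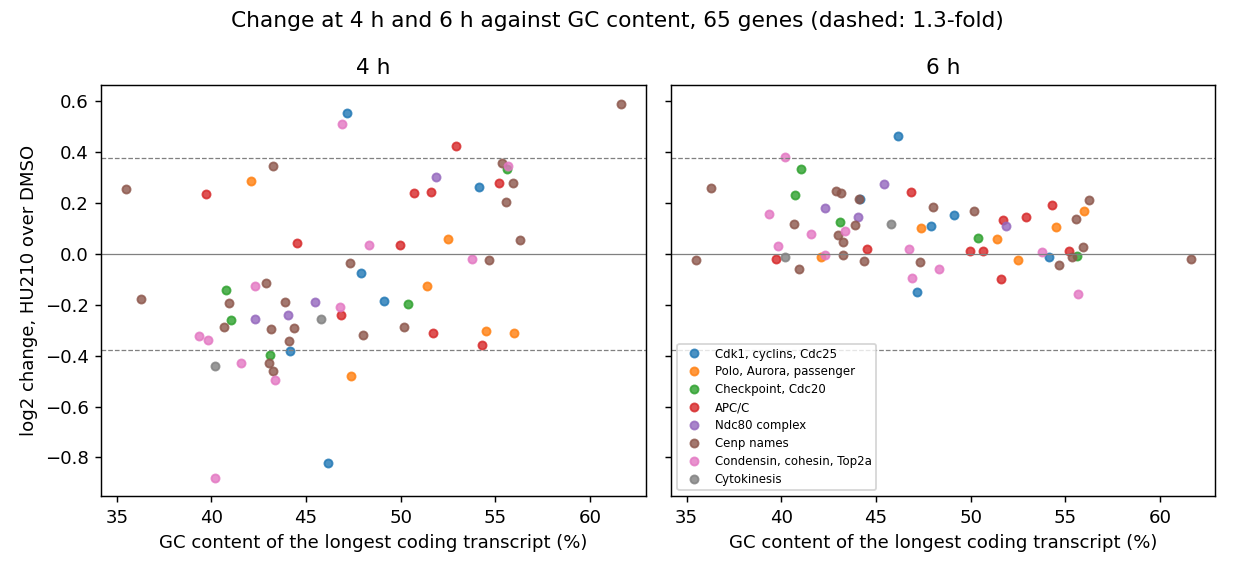
Change at 4 h and 6 h (y axis, log2 ratio of HU210 to DMSO) against the GC content of the longest coding transcript in percent (x axis), with 1 point per gene coloured by role and dashed lines at 1.3-fold. At 4 h the 10 genes below the lower line have a median GC content of 43.2%, and at 6 h the points lie closer to 0.

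The second question was whether the members changed with hour in the starved cells, whatever the agent. Most members were lower at 4, 6 and 8 h than at 2 h in both treatments, but no slope passed the threshold. The median difference from 2 h was -0.092, -0.28 and -0.24 in DMSO, beside 0.016, -0.067 and -0.052 over all genes tested. In HU210 it was -0.16, -0.080 and -0.17, beside -0.015, 0.061 and 0.046. Neither course fell steadily with hour. limma, fitted to all 8 libraries with treatment as a covariate, called 0 of 65 members for hour, as it called 0% of all 11311 genes. The slope was below 0 in 52 members (80%), against 51.6% of all genes tested. At an unadjusted p under 0.05, 24 members had a slope below 0 (36.9%, against 5.79% of all genes) and 1 member had a slope above 0, where the share of all genes was 5.86%. This count rests on the 2 h libraries: without both of them it is 2, while the share of all genes drops as well, to 0.787%. Without both 8 h libraries the count is 11 and the share of all genes 1.54%. Without both 4 h libraries they are 32 and 10%, and without both 6 h libraries 22 and 5.52%.

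The lowest adjusted p among the members was that of Cenpa, with a slope of -0.078 ± 0.014 (SE) on the log2 scale per hour and an adjusted p of 0.201 by limma, which comes to 0.722 times the level over 6 h. Ccnb1 had the steepest slope, -0.124 ± 0.027 (SE) per hour with a 95% interval of -0.185 to -0.063 and an adjusted p of 0.277 by limma, or 0.597 times the level over 6 h. The slope of Cdk1 was -0.083 per hour (adjusted p 0.359 by limma) and that of Ccnb2 -0.060 (adjusted p 0.305). Cenpf had the only slope above 0 with an unadjusted p under 0.05, at 0.091 per hour with an interval of 0.039 to 0.143 and an adjusted p of 0.295 by limma.

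**Figure D4:**
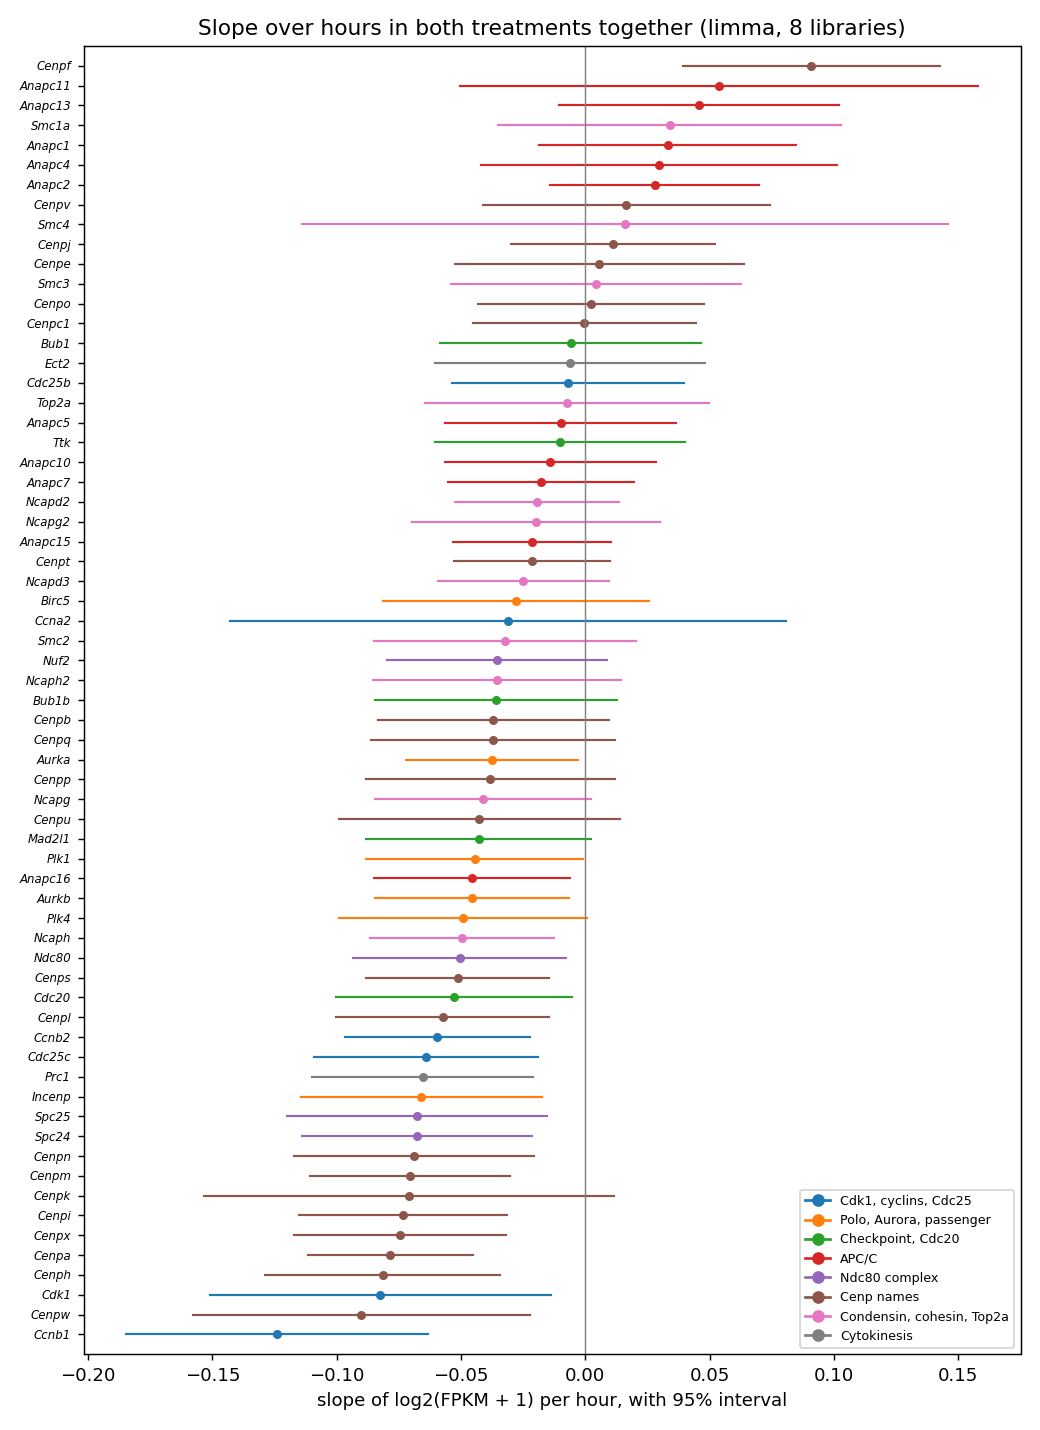
Slope of log2(FPKM + 1) per hour (x axis) of each of the 65 genes (y axis), with its 95% interval from limma over 8 libraries, coloured by role. The slopes run from -0.124 for Ccnb1 to 0.091 for Cenpf, and 52 of the 65 lie below 0.

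The roles differed in how many slopes lay below 0. All 6 genes of the Cdk1, cyclin and Cdc25 group had a slope below 0, 4 of them with an unadjusted p under 0.05 (Ccnb1, Cdk1, Cdc25c and Ccnb2). All 6 of the Polo, Aurora and passenger group did, 4 of them past that p (Incenp, Aurkb, Plk1 and Aurka), as did all 4 of the Ndc80 complex, 3 of them past it (Spc24, Spc25 and Ndc80). Of the 21 Cenp names 16 were below 0, 9 of them past that p, among them the inner kinetochore genes Cenph, Cenpi, Cenpm, Cenpn and Cenpl and the histone-fold genes Cenpw, Cenpx and Cenps. The APC/C subunits with an Anapc name were split, with 5 of 10 below 0 and a median slope of 0.009. Of the 11 condensin, cohesin and topoisomerase genes 8 were below 0, and only Ncaph among them had an unadjusted p under 0.05. The difference between roles was not tested.

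At 8 h against 2 h, 53 members were lower in DMSO with a median of -0.24 and 47 in HU210 with a median of -0.17, where 59.4% and 42.1% of all genes tested were lower. In DMSO 14 members were lower by 1.3-fold and 4 higher, against 9.29% and 4.23% of all genes. In HU210, 14 were lower and 4 higher by 1.3-fold, against 4.69% and 9.4% of all genes. In both treatments 44 members were lower, against 34.8% of all genes. The 2 treatments shared no library in these comparisons, but the libraries of each hour were deposited as a treated and control pair. Hour and pair therefore cannot be told apart. Ccnb1 was lower by 0.94 on the log2 scale in DMSO and by 0.65 in HU210, and Cenpw by 0.62 and 0.75. Among the genes higher at 8 h were Cenpf (0.41 and 0.76), Anapc11 (0.49 and 0.56) and Anapc13 (0.18 and 0.49).

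The highest library was one of 2 h in 35 members, against 21.8% of all genes tested. Both 2 h libraries lay above the other 6 in 17 members, against 7.61% of all genes. They were Anapc15, Aurkb, Ccnb1, Cdc25c, Cdk1, Cenpa, Cenph, Cenpi, Cenpm, Cenpn, Cenps, Incenp, Ncapg, Ncaph, Ndc80, Prc1 and Spc24. All 4 libraries of 2 h and 4 h lay above all 4 of 6 h and 8 h in 9 members (Aurka, Ccnb2, Cdc20, Cdc25c, Cenpa, Cenpm, Mad2l1, Ncapd2 and Ncaph), against 2.2% of all genes, and the reverse held for 0 members, against 3.24%. The median deviation of the members from their mean was 0.16 in DMSO at 2 h and 0.081 in HU210 at 2 h, and it was -0.072 and -0.066 at 8 h. Over all genes tested these deviations were 0.032, -0.026, -0.027 and 0.020. At 4 h the median of the members was 0.098 in DMSO and -0.063 in HU210, and at 6 h it was -0.11 and -0.019. For all genes tested it was 0.042 and -0.037 at 4 h, and -0.034 and 0.034 at 6 h.

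**Figure D5:**
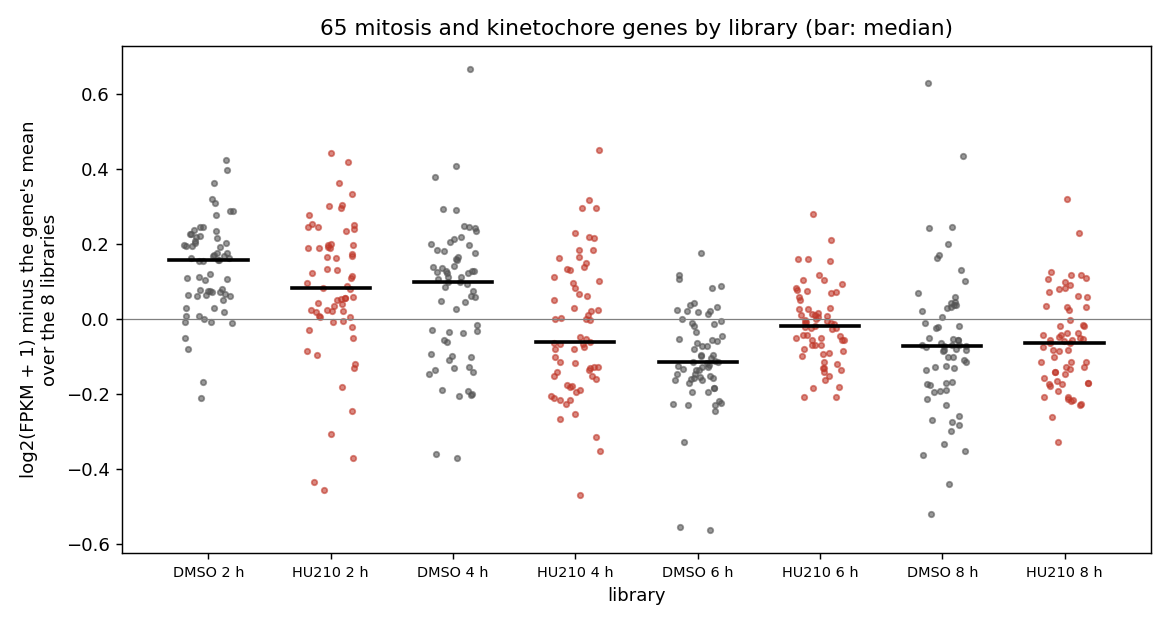
Deviation of each of the 65 genes from its own mean over the 8 libraries (y axis, log2 scale) in each library (x axis), with 1 point per gene, grey for DMSO, red for HU210 and a bar at the median. The medians are 0.16 and 0.081 in the 2 h libraries and -0.072 and -0.066 in the 8 h libraries. Those of DMSO and HU210 are 0.098 and -0.063 at 4 h, and -0.11 and -0.019 at 6 h.

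Among the 20 matched members with a slope below 0 at an unadjusted p under 0.05, the homology region was in the promoters of 14 (70%) and CCAAT in 16 (80%). Among the other 39 matched members the homology region was in 16 (41%) and CCAAT in 19 (48.7%), and among all genes tested with a promoter the shares were 22.2% and 44.3%. The difference between these members and the others was not tested, and none of the slopes passed the adjusted threshold. The promoters of Cdk1, Ccnb1, Ccnb2 and Cenpa shown above hold both elements, and so does that of Cenpf, whose slope was above 0.

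Whether HU210 changed the slope was the third question. limma called 0 of 65 members for the product of treatment and hour, as it called 0% of all genes, and 0 members had an unadjusted p under 0.05, where 2.6% of all genes had a positive and 0.274% a negative product. The product was above 0 in 44 of the 65 members (67.7%), a share like that of all genes tested (68.2%), and the lowest adjusted p among them was 0.958 by limma. For Ccnb1 it was 0.074 per hour with a 95% interval of -0.042 to 0.190, and for Cenpf 0.077 with an interval of -0.015 to 0.169. With late (6 h and 8 h) against early (2 h and 4 h) hours in place of the slope, 4 members had a positive product at an unadjusted p under 0.05, where 14% of all genes did, and 0 were called.

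A list of 81 other mitotic genes (spindle motors, outer kinetochore, cohesin and its release, entry kinases and phosphatase inhibitors, further APC/C subunits and G2/M transcription factors) gave 80 listed genes. limma called 0 of them for hour, and 65 of 80 had a slope below 0 (81.2%, against 51.6% of all genes tested), with 16 below and 1 above 0 at an unadjusted p under 0.05, where the shares of all genes were 5.79% and 5.86%. Without both 2 h libraries the 16 became 2. Kif18a, a kinesin that limits microtubule length at kinetochores, had a slope of -0.127 per hour. All 9 genes of the entry and exit kinase group and 16 of 17 outer kinetochore genes had a slope below 0. At 4 h, 1 of the 80 was higher by 1.3-fold (Ube2s, an E2 enzyme of the APC/C, 0.42) and 26 were lower (32.5%), where 8.96% of genes with a mean of at least 1 FPKM were higher and 19.9% lower. The lowest change was that of Rbl2, a DREAM subunit, at -1.34, and the median was -0.24. With the pair centred on its median ratio, 2 were higher and 17 lower, against 13.4% and 14.5% of genes tested. With the trend on GC and length taken out, 3 were higher and 6 lower, against 8.03% and 9.95% of genes tested. At 6 h, Nusap1, a microtubule-binding spindle protein, was higher by 0.45 and Rbl2 by 0.39, while Cdc26, an APC/C subunit, was lower at -0.51. At 2 h and 8 h, 0 of them passed 1.3-fold.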

How the data were processed

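The authors sequenced mRNA of N2A cells, 1 library for each of 8 conditions, and mapped reads with TopHat2 2.0.8, Bowtie2 2.1.0 and SAMtools 0.1.7 to mm9. The FPKM deposited by the authors come from Cufflinks (version not given in the sources used here) with upper-quartile normalization, a correction for fragment bias and one for reads that map to several places. The authors deposited them with 1 added, which was subtracted here. The deposited fold change, p-value and q-value columns, which hold the authors' own comparison, and their second table of DEGs were not used. No column was left without a sample. Counts are not part of the table, so depth per gene is unknown and no counting interval can be given.

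Values were analysed as log2(FPKM + 1) over genes listed in all 8 libraries with a mean of at least 1 FPKM. limma 3.58.1 (eBayes with trend, two-sided, Benjamini-Hochberg over 11311 genes, threshold 0.05) in R 4.3.3 tested treatment with time as a block, slope per hour with treatment, and their product. P-values measure the spread between single pooled libraries. The slope fit treats both libraries of an hour as independent. If they share a deviation, its p-values and intervals can be too small. Tables and figures used pandas 2.3.3, numpy 2.4.6, matplotlib 3.10.9 and scipy 1.17.1 under Python 3.11.15. The steps were tested on simulated data. For the limma fits the simulated noise was independent and of equal size in every gene. That test does not show how the fits perform on these libraries.

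The members and lists were chosen with earlier results of these data known. Genes named with all values are 20 fixed role genes and the 3 members with the largest increase and decrease at each hour. Cenpf, Kif18a and members named for a count were named after their values were seen. Positions, exons and GC content come from GENCODE vM1 (mm9), in which Cenpu, Cenpx, Cenps and Anapc15 were found under older names, and promoters come from RefSeq (GRCm38.p6). Bub3 and Lin54 were not analysed here. Alternatives were a pseudocount of 0.1, other filters, centring, the mean of the 4 DMSO libraries as reference, removal of a loess trend on GC content and length (span 0.3), 1.5-fold, eBayes without trend, no block, late against early hours, and each hour left out.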

Additional observations from a re-analysis of the deposited data

Results flagged for a closer look

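In 3 members the change with HU210 passed 1.3-fold in opposite directions at different hours, each hour being 1 pair of libraries, and the difference between single hours was not tested. Smc4 was at -0.88 at 4 h, 0.38 at 6 h and -0.63 at 8 h on the log2 scale, and its change of the HU210 effect per hour was -0.054 with an adjusted p of 0.965 by limma. Ccna2 was at -0.82 at 4 h and 0.46 at 6 h, with 0.11 per hour and an adjusted p of 0.958 by limma. Anapc11 was at -0.40 at 2 h and 0.43 at 4 h, with -0.0029 per hour and an adjusted p of 0.997 by limma. In Ccna2 the 4 HU210 libraries span 45.9 to 52.4 FPKM and the 4 DMSO libraries 34.5 to 81.8 FPKM.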

How the results depend on the processing

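The counts of members past 1.3-fold depend on the reference library. Against the mean of the 4 DMSO libraries they were 6, 2, 0 and 0 (in order of hour), in place of 1, 14, 2 and 1, and Ccna2 and Smc4 at 6 h turned to -0.18 and -0.30. With each pair centred on its median ratio (a shift of -0.051, -0.081, 0.063 and 0.044) 2 h had a count of 0 and 6 h of 1. At 4 h there were again 14 members, but 9 were higher and 5 lower, in place of 4 and 10. The shares of genes tested were then 13.4% and 14.5%. Once a loess trend on transcript GC and length was taken out, the count was 0 at both 2 h and 6 h. At 4 h, 7 members were then higher and 4 lower, against 8.03% and 9.95% of genes tested. A threshold of 1.5-fold left 3 members at 4 h and 0 at both 2 h and 6 h. Shares of all genes against the DMSO mean and at 1.5-fold are not given here. The cause of these shifts in the counts was not tested, apart from the higher threshold.

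limma called 0 members for HU210, for hour and for their product with the other pseudocount, without the filter, with libraries centred, with eBayes without trend and with each hour left out, and 0 for hour and for the product with late against early hours. The GC and length trend was taken out of the changes at single hours only. Without the replicate block, that is without time as a term that pairs the libraries, 0 members were called for HU210. The labels give no replicate numbers. The 25 slopes with an unadjusted p under 0.05 kept their direction under each alternative run on them (pseudocount, filter, centring, eBayes without trend, late against early hours and each hour left out), although only 2 members had a negative slope with such a p without the 2 h libraries. Depth per gene is unknown, so no counting error can be given, which bears most on Anapc10, Cenpj and Cenpl, the members at the lowest levels.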
